A study of Mus musculus with 7 samples.

Results

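The interferon-response genes are a list of 48 mouse genes whose transcription is known to be raised by type I or type II interferon, out of 34932 genes with a matched transcript in these libraries. They were listed by name as interferon-induced genes, but with earlier results of these data known, so the list is not independent of the values here. They were set apart by role into 24 antiviral effectors, 8 sensors and signalling factors, 10 GTPases and 6 genes of antigen presentation. All 48 were found and all 48 passed the filter on low counts, so no member was lost to it.

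Bulk RNA-seq was made from LT-HSCs (long-term haematopoietic stem cells), marrow cells able to restore every blood lineage, sorted as negative for lineage markers and CD48 and positive for Sca-1, c-Kit and CD150. There were 4 libraries labelled B4galt1 KO, with the genotype B4-/- and described as a full knockout, and 3 labelled B4galt1 WT, both on a 129S1/C57Bl/6 background. The labels give no age, sex or treatment, and do not say that the replicates of a group are separate animals. The p-values therefore describe the spread among these libraries only, and that spread may be partly technical. B4galt1 encodes a galactosyltransferase of the Golgi that adds galactose to glycan chains.

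The libraries held 23508985 to 34941390 estimated reads. B4galt1 RNA was at 15.9 ± 2.28 CPM (read counts scaled to library size, SD, n = 4) in KO libraries and 18.3 ± 6.62 CPM (SD, n = 3) in WT, so its level does not check the genotype (log2 fold change KO minus WT -0.20, edgeR adjusted p = 0.758), and the labels alone give the directions below. The summed Y-linked genes were high in 5 libraries and low in KO replicate 4 and WT replicate 3. The libraries of each group thus did not all come from the same source, though how many animals they stand for is not known. The medians by role and list, and the calls that change, are also given without those 2 libraries. The 13 stem cell markers summed to 1379 to 1650 CPM in KO and 1673 to 1926 CPM in WT. The 12 megakaryocyte and platelet markers moved with the groups, at 1324 to 2171 CPM in KO and 5471 to 12110 CPM in WT. Of them 9 were lower by the edgeR test, beside 1.66% of all genes tested.

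Interferons act through cell-surface receptors and the kinases JAK1, TYK2 and JAK2. Type I interferon assembles a complex that includes STAT2 and IRF9 and binds the interferon-stimulated response element (ISRE), while type II interferon acts mainly through the gamma-activated sequence (GAS). The induced proteins block viral entry and replication, degrade or sense foreign nucleic acid, attack the vacuoles of intracellular microbes and raise antigen presentation. Haematopoietic stem cells are known to keep part of this programme on without infection, and to enter the cell cycle when exposed to interferon. Ly6a, which encodes the sort marker Sca-1 and is itself interferon-induced, was at 168.5 ± 53.5 CPM (SD, n = 4) in KO and 155.7 ± 50.8 CPM (SD, n = 3) in WT, and the groups overlapped (log2 fold change 0.11, edgeR adjusted p = 0.874).

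Of the 48 members, 1 was higher in the libraries labelled KO and 0 were lower at an adjusted p below 0.05 in the quasi-likelihood test of edgeR. The gene was Oas2. That is 2.08% of the members, beside 0.599% of the 14695 genes tested that were called higher and 1.66% called lower. DESeq2 called 3 members higher (Oas2, Ifi27 and Rtp4) and 0 lower, beside 2.27% and 3.39% of the genes it tested, and limma voom called the same 3 higher and 0 lower, beside 1.83% and 2.99%. At an unadjusted p below 0.05, 8 members (16.7%) were higher and 1 (2.08%) lower, beside 7.42% higher and 7.21% lower over all genes. In 6 members (12.5%) every KO library lay above every WT library, beside 8.23% of all genes, and in 0 members did every KO library lie below, beside 7.47%. Of the members 32 (66.7%) had a fitted value above 0, beside 52.7% of all genes. The median log2 fold change of the members was 0.12, beside 0.03 over all genes. It was 0.32 in the antiviral effectors, 0.50 in the sensors and signalling factors, -0.19 in the GTPases and 0.06 in antigen presentation. Without both libraries lacking male-pattern expression these medians were 0.52, 0.52, -0.0021 and 0.08. With 1 library left out they ran from 0.15 (without WT replicate 1) to 0.57 (without WT replicate 3), from 0.31 to 0.61 (without the same libraries), from -0.25 to -0.04 and from -0.05 (without WT replicate 2) to 0.08. These differences between role groups were not tested.

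**Figure D1:**
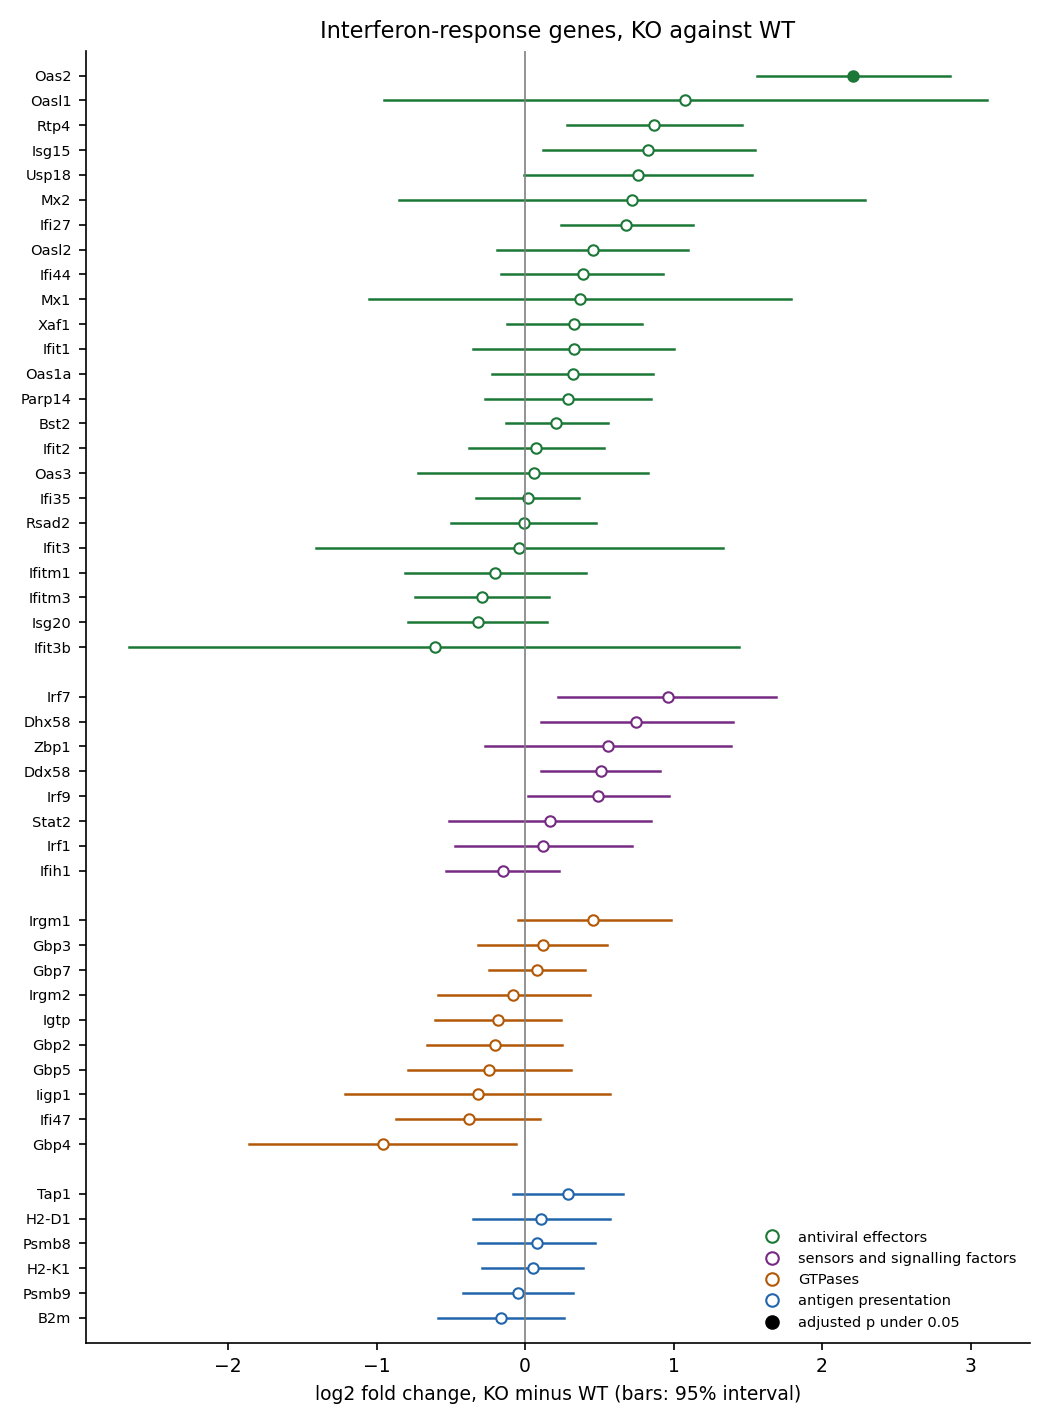
Log2 fold change, KO minus WT, of each of the 48 genes (points) with its 95% interval (bars), by role group. The filled point, Oas2 at 2.21, is the only member past an adjusted p of 0.05, and 7 of the 10 GTPases lie below 0.

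Oas2 encodes an oligoadenylate synthetase, an enzyme that makes short 2'-5'-linked adenylate chains on double-stranded RNA and so switches on RNase L. Its level was 9.76, 9.28, 11.6 and 9.81 CPM in KO (replicates 1 to 4, the order kept throughout) and 2.38, 2.44 and 1.73 CPM in the WT libraries (1 to 3). The KO libraries were tightly grouped and all of them lay above all WT libraries. The means were 10.1 ± 1.04 CPM (SD, n = 4) and 2.18 ± 0.395 CPM (SD, n = 3), and Oas2 rose 4.63-fold in KO (log2 fold change 2.21, SE 0.293, 95% interval 1.56 to 2.86, edgeR adjusted p = 0.00242). The estimate rested on 40 to 363 reads per library. It passed under all 18 alternatives, with values from 1.99 to 2.27 and adjusted p from 2.34e-14 to 0.0183. In length-corrected terms it was a low transcript, at a mean of 2.48 TPM over the 7 libraries.

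The gene lies on the minus strand of GRCm38 chromosome 5, from 120730333 to 120749853, and its reads were divided over several annotated transcripts. The 3 protein-coding transcripts together held 76.1, 80.7, 143.6 and 310.0 estimated reads in KO and 39.6, 0.0 and 1.8 in WT, or 2.97, 2.98, 5.25 and 8.38 CPM against 1.35, 0 and 0.0776 CPM. The groups did not overlap, and WT replicates 2 and 3 were near 0. A retained-intron transcript of 2373 nt at the 3' end of the gene, Oas2-204, held 173.9, 170.3, 174.4 and 53.0 estimated reads in KO and 30.4, 52.0 and 38.2 in WT, or 6.79, 6.30, 6.38 and 1.43 CPM against 1.03, 2.44 and 1.65 CPM. KO replicate 4 lay inside the WT range for this transcript. The retained-intron form took 54.8% to 69.6% of the gene's reads in KO replicates 1 to 3, 14.6% in KO replicate 4, 43.4% in WT replicate 1 and 95.5% to 100% in the other WT libraries. These transcripts share sequence, so the division is an estimate.

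Oas3, which lies next to Oas2, and Oas1a, further along the same cluster, encode enzymes of the same kind, and their groups overlapped. Oas3 (chromosome 5, 120753098 to 120777661) was at 9.29, 8.02, 8.48 and 4.46 CPM in KO and 4.52, 7.96 and 9.36 CPM in WT, and the groups overlapped fully (log2 fold change 0.06, 95% interval -0.72 to 0.83, edgeR adjusted p = 0.956). Oas1a (120896256 to 120907521) was at 43.0, 69.5, 77.8 and 67.1 CPM in KO and 39.1, 48.2 and 67.5 CPM in WT, also with overlap (0.32, edgeR adjusted p = 0.569). With its near-identical copy Oas1g added, the value was 0.38 (edgeR adjusted p = 0.498). The log2 ratio of Oas2 to Oas3 was 0.47 ± 0.47 (SD, n = 4) in KO and -1.69 ± 0.76 (SD, n = 3) in WT. Since Oas2 was the member called, this ratio is a description and no p-value is given for it. It was taken on CPM without length correction, so it compares libraries and not the levels of the genes. Both distant paralogues, Oasl1 and Oasl2, had positive values that did not pass (1.08 and 0.46). Oasl1 was at 3.62 to 5.89 CPM in KO and at 4.86, 0 and 1.64 CPM in WT, with 0 reads in WT replicate 2.

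The promoter stretches of Oas3 and Oas1a are shown because both hold the ISRE core and both genes lie in the cluster of Oas2, the member that rose. They are from RefSeq (GRCm38.p6), minus strand, 5' to 3' in the direction of transcription, chr5:120777685-120777774 and chr5:120907490-120907585, and capitals mark the ISRE core, which is GAAA, any 2 bases and GAAA, or TTTC, any 2 bases and TTTC where it stands on the opposite strand. The Oas1a stretch runs across its start site and holds 2 overlapping matches.
Oas3: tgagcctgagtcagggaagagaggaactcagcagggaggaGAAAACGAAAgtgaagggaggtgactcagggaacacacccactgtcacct
Oas1a: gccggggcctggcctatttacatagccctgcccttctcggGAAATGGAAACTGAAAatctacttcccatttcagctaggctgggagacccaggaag

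**Figure D2:**
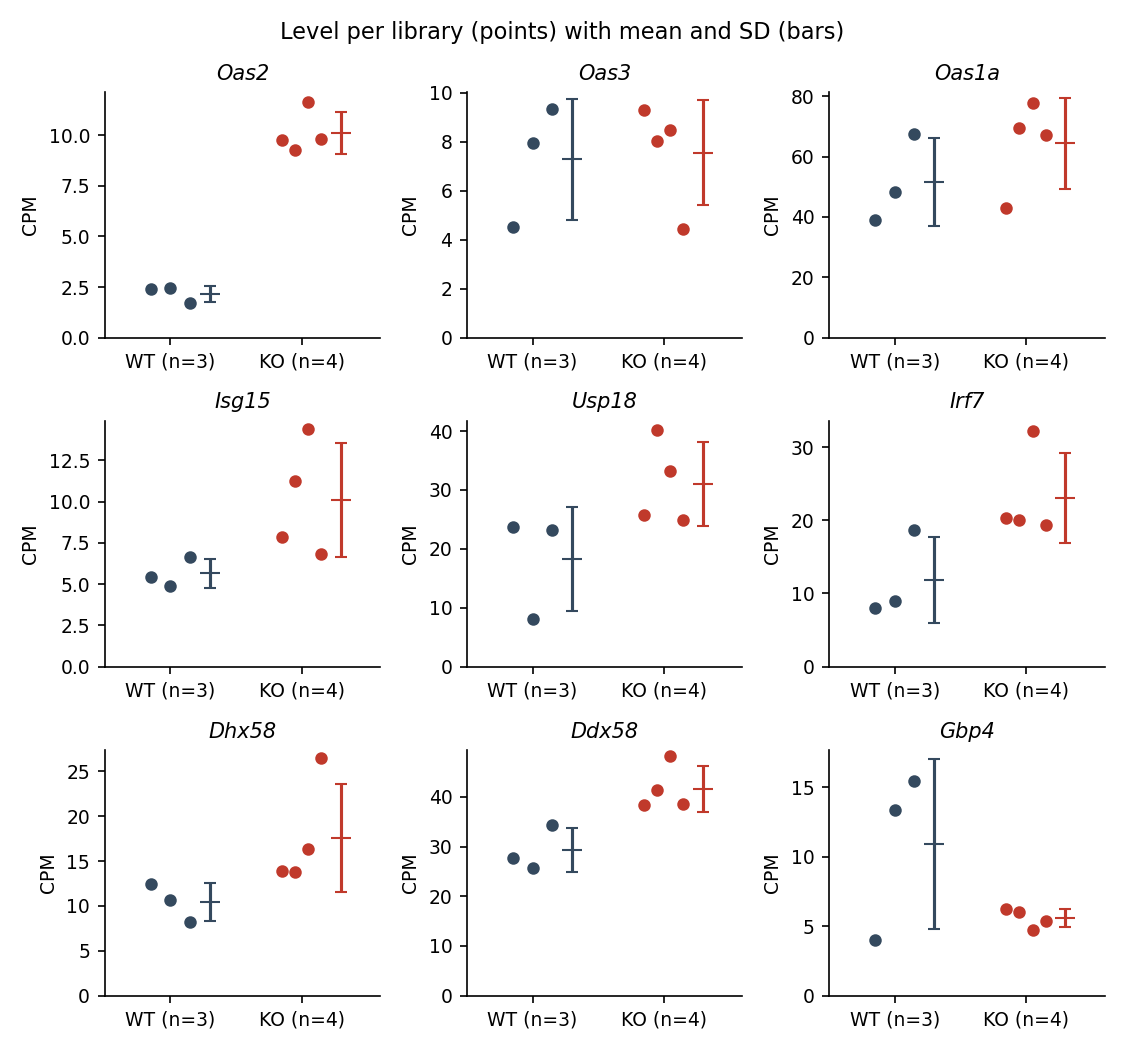
CPM of 9 genes in each library (points; WT in dark blue, KO in red) with the mean and SD (bars), each axis starting at 0. Oas2 separates the groups widely, Isg15, Usp18, Irf7, Dhx58 and Ddx58 separate them narrowly, and Oas3, Oas1a and Gbp4 overlap.

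Among the other antiviral effectors, 17 of 23 had positive values and none passed the edgeR test. Ifi27 encodes a mitochondrial and nuclear envelope protein and Rtp4 a receptor transporter with antiviral action. Ifi27 was at 157.3, 183.8, 158.4 and 104.5 CPM in KO and 83.8, 92.9 and 105.3 CPM in WT. Only KO replicate 4 reached down into the WT range (log2 fold change 0.68, SE 0.201, edgeR adjusted p = 0.133). Rtp4 was at 88.5, 93.8, 121.1 and 58.5 CPM in KO and 36.6, 46.1 and 65.4 CPM in WT, again with KO replicate 4 inside the WT range (0.87, SE 0.266, edgeR adjusted p = 0.146). Without KO replicate 4 both passed, as 3 members called higher with Oas2 beside 0.901% of all genes, at 0.83 (edgeR adjusted p = 0.0169) and 1.04 (edgeR adjusted p = 0.0406). Without both libraries lacking male-pattern Y-linked expression they were at 0.93 (edgeR adjusted p = 0.0214) and 1.31 (edgeR adjusted p = 0.0126), and 4 members were called higher beside 0.612% of all genes. Over all alternatives the adjusted p of Ifi27 ran from 0.00844 to 0.367 and that of Rtp4 from 0.0126 to 0.394.

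Isg15 encodes a ubiquitin-like protein that is attached to other proteins after interferon exposure, and Usp18 the protease that removes it and also restrains the type I receptor. Isg15 was at 7.88, 11.2, 14.4 and 6.81 CPM in KO and 5.44, 4.87 and 6.64 CPM in WT. The groups did not overlap, but KO replicate 4 lay just above WT replicate 3 (0.83, 95% interval 0.12 to 1.55, edgeR adjusted p = 0.27). Usp18 was at 25.8, 40.1, 33.2 and 24.9 CPM in KO and 23.6, 8.11 and 23.2 CPM in WT, without overlap and with WT replicate 2 far below the other 2 WT libraries (0.76, 95% interval -0.01 to 1.53, edgeR adjusted p = 0.351). The Isg15 promoter stretch (chr4:156200835-156200936, minus strand) is shown because it holds 3 overlapping ISRE cores in a row, in capitals, the most among the 37 members with a promoter in the table.
Isg15: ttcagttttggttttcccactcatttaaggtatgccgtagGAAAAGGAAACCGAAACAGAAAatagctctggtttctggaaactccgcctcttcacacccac

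The IFIT genes, whose proteins bind foreign RNA and block its translation, lie side by side on chromosome 19 between 34550694 and 34650009. Their values were 0.33 for Ifit1, 0.07 for Ifit2, -0.04 for Ifit3 and -0.61 for Ifit3b, and in each the groups overlapped. Ifit3 and Ifit3b are near copies and their reads cannot be divided with certainty. Their sum was at 1.87, 4.29, 6.84 and 1.32 CPM in KO and 2.72, 1.83 and 7.11 CPM in WT, highest in KO replicate 3 and WT replicate 3, with KO replicate 2 between these and the rest (log2 fold change -0.12, edgeR adjusted p = 0.944). The shared upstream stretches (plus strand, chr19:34583353-34583436 and chr19:34607749-34607832) show how close the copies are. Lined up on their 2 ISRE matches without gaps, the windows were identical at 201 of 268 bases (75%), and the stretches printed were chosen around the matches.
Ifit3: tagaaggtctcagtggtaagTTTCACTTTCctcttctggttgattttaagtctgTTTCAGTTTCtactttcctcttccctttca
Ifit3b: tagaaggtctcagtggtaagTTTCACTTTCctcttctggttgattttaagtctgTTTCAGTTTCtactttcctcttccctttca

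The most abundant effectors were the IFITM proteins, membrane proteins that block virus entry. Per length, Ifitm1 stood at a mean of 1966 TPM and Ifitm3 at 1829 TPM over the 7 libraries, above all other effectors on the list. Ifitm1 was at 643.9, 1012, 1010 and 683.0 CPM in KO and 716.7, 1439 and 728.5 CPM in WT. The groups overlapped, with WT replicate 2 highest of all (-0.20, 95% interval -0.81 to 0.41, edgeR adjusted p = 0.765). Ifitm3 gave -0.29 (95% interval -0.74 to 0.16, edgeR adjusted p = 0.546). The WT replicate that was highest in Ifitm1 was also the one with the highest summed megakaryocyte and platelet markers, and the part of such transcripts in the IFITM values was not tested.

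The remaining effectors overlapped between groups. Xaf1, an apoptosis factor, was at 0.33, Bst2, which tethers budding virus, at 0.21, Ifi44 at 0.39, Ifi35 at 0.02, Parp14, an ADP-ribosyltransferase, at 0.29, and Isg20, an exonuclease, at -0.32. Rsad2, whose product viperin makes a chain-terminating nucleotide, was at 11.2 to 15.4 CPM in KO and 11.4 to 14.1 CPM in WT (-0.01, 95% interval -0.50 to 0.48). The dynamin-like proteins of the Mx pair were low and scattered. Mx1 was at 0.82, 4.87 and 0.95 CPM in WT alone, and Mx2, annotated as a polymorphic pseudogene, ran from 0.54 to 12.1 CPM over all libraries, so neither gave a usable interval (-1.05 to 1.79 and -0.85 to 2.29).

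Of the 8 sensors and signalling factors, 7 had positive values and 0 passed in edgeR, DESeq2 or limma voom, while 4 (50%) were higher at an unadjusted p below 0.05, beside 7.42% of all genes. Irf7, the factor that amplifies interferon production, was at 20.3, 20.1, 32.3 and 19.4 CPM in KO and 7.95, 8.99 and 18.6 CPM in WT. KO replicate 3 stood high, WT replicate 3 lay close under the KO libraries, and the groups did not overlap. The means were 23.01 ± 6.17 CPM (SD, n = 4) and 11.9 ± 5.89 CPM (SD, n = 3), and the difference did not pass (log2 fold change 0.96, 95% interval 0.22 to 1.69, edgeR adjusted p = 0.207). It passed only without both libraries lacking male-pattern expression, at 1.53 (edgeR adjusted p = 0.0326, with a range of 0.0326 to 0.478 over the alternatives).

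The RNA helicases that detect viral RNA are RIG-I (Ddx58), MDA5 (Ifih1) and LGP2 (Dhx58), and their values differed in sign. Ddx58 was at 38.3, 41.5, 48.3 and 38.5 CPM in KO and 27.8, 25.8 and 34.3 CPM in WT, without overlap (0.51, SE 0.18, edgeR adjusted p = 0.219). Dhx58 was at 13.9, 13.8, 16.3 and 26.5 CPM in KO and 12.5, 10.6 and 8.24 CPM in WT, without overlap and with KO replicate 4 highest (0.75, SE 0.291, edgeR adjusted p = 0.266). Ifih1 was at 31.6 to 44.4 CPM in KO and 41.6 to 47.6 CPM in WT, with overlap (-0.15, 95% interval -0.53 to 0.23). Ddx58 (chromosome 4, 40203773 to 40239828) lies 0.565 Mb from B4galt1, so sequence linked to the targeted locus and the loss of the gene cannot be told apart for it. Isg15, the only other member on that chromosome, lies 115.3 Mb away. The stretch of Ddx58 (chr4:40239776-40239875, minus strand) is shown because its ISRE match, in capitals, starts 2 bases after the start site.
Ddx58: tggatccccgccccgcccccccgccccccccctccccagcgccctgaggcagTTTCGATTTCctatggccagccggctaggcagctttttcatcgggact

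Irf9, the DNA-binding part of the complex that binds the ISRE, was at 81.1, 106.8, 107.6 and 116.4 CPM in KO and 66.3, 55.6 and 97.4 CPM in WT. WT replicate 3 lay within the KO range (0.49, 95% interval 0.02 to 0.97, edgeR adjusted p = 0.32). Its partner Stat2 was at 0.17, and the nucleic acid sensor Zbp1 at 0.56, both with overlap. Irf1, which acts downstream of type II interferon and was the most abundant of this role group per length at 47.3 TPM, was at 63.9, 97.1, 94.7 and 107.6 CPM in KO and 89.0, 49.7 and 111.5 CPM in WT. Its groups overlapped fully (0.12, 95% interval -0.47 to 0.72, edgeR adjusted p = 0.855).

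The GTPases are the immunity-related GTPases (IRGs) and guanylate-binding proteins (GBPs), induced above all by type II interferon, which act on the vacuoles that hold intracellular microbes. Of the 10, 7 had negative and 3 positive values, and 0 passed in edgeR, DESeq2 or limma voom, with 1 lower (10%) and 0 higher at an unadjusted p below 0.05, beside 7.21% and 7.42% of all genes. The group's median was -0.04 without WT replicate 3 and -0.0021 without both libraries lacking male-pattern expression, with 0 called. The part of sex in this was not tested. WT replicate 3 was the highest WT library in 7 of the 10 GTPases (70%), beside 31.7% of all genes. Ifi47, the most abundant per length at 157.4 TPM, was at 189.6, 267.9, 240.9 and 216.2 CPM in KO and 239.6, 241.3 and 412.9 CPM in WT, with WT replicate 3 far above the rest (-0.38, 95% interval -0.87 to 0.10, edgeR adjusted p = 0.463). Iigp1 was at 50.3, 53.7, 60.2 and 17.7 CPM in KO and 50.9, 32.9 and 86.4 CPM in WT, so KO replicate 4 was lowest and WT replicate 3 highest (-0.32, edgeR adjusted p = 0.742).

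Irgm1, a regulatory IRG known to be needed for stem cell maintenance, went the other way. It was at 129.3, 146.5, 167.9 and 128.5 CPM in KO and 112.7, 65.1 and 133.4 CPM in WT, with WT replicate 2 low and WT replicate 3 inside the KO range (0.46, 95% interval -0.05 to 0.98, edgeR adjusted p = 0.396). Igtp and Irgm2 overlap on the plus strand of chromosome 11, so their reads are divided by estimate. Their sum was at 86.6, 105.4, 88.9 and 110.0 CPM in KO and 108.0, 88.2 and 131.0 CPM in WT, with overlap (-0.16, edgeR adjusted p = 0.705). Their promoters (chr11:58199482-58199571 and chr11:58214873-58214962) are shown as a pair because each carries the same ISRE letters in nearly the same surroundings. Over the whole windows, lined up on that match without gaps, 184 of 270 bases (68.1%) were identical.
Igtp: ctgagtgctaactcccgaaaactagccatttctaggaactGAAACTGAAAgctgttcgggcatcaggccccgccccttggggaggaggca
Irgm2: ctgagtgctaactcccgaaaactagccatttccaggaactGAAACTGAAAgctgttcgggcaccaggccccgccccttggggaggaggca

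The GBPs lie in clusters on chromosomes 3 and 5, and the split by cluster was made after the values were seen. Gbp2, Gbp3, Gbp5 and Gbp7 on chromosome 3 were at -0.20, 0.12, -0.24 and 0.08, all with overlapping groups. Gbp7 had the narrowest interval of the 10 GTPases (-0.24 to 0.40), at 107.1 to 116.2 CPM in KO and 93.1 to 114.9 CPM in WT. Gbp4 on chromosome 5 was at 6.21, 6.03, 4.75 and 5.38 CPM in KO and 3.97, 13.4 and 15.4 CPM in WT. The KO libraries were close together and WT replicate 1 lay below all of them (-0.96, 95% interval -1.86 to -0.06, edgeR adjusted p = 0.309). Without WT replicate 1 it passed, at -1.38 (edgeR adjusted p = 0.0482, with a range of 0.0482 to 0.654 over the alternatives), as the 1 member called lower beside 1.15% of all genes. Of its neighbours in the cluster, which are not members, Gbp6 was at -1.55 (edgeR adjusted p = 0.0747), Gbp8 at -0.92 (0.124) and Gbp9 at -0.76 (0.286). The other neighbours had few reads and wide intervals, with Gbp10 at -0.68 (95% interval -3.88 to 2.51) and Gbp11 above 0, at 0.26 (-3.03 to 3.56). Gbp4, Gbp8 and Gbp9 overlap on the genome, and their sum was at 24.82, 24.03, 21.24 and 25.6 CPM in KO and 27.3, 43.8 and 62.3 CPM in WT. Every KO sum lay below every WT sum, and WT replicate 3 was again highest. Without both libraries lacking male-pattern expression the sums were 21.24 to 24.82 CPM in KO and 27.31 and 43.8 CPM in WT.

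The antigen presentation genes load peptides onto MHC class I and display them at the cell surface. B2m, the light chain of MHC class I, had a mean of 8029 TPM, the highest of all 48 members per length, and H2-K1 and H2-D1, the class I heavy chains, had 1178 and 1030 TPM. B2m was at 6420, 6282, 6388 and 4226 CPM in KO and 5406, 7737 and 6417 CPM in WT. KO replicate 4 was lowest, WT replicate 2 highest, and the groups overlapped (-0.16, 95% interval -0.59 to 0.26, edgeR adjusted p = 0.724). H2-K1 was at 1387, 1390, 1418 and 1791 CPM in KO and 1532, 1417 and 1388 CPM in WT, with KO replicate 4 above the others (0.05, 95% interval -0.29 to 0.39, edgeR adjusted p = 0.901). H2-D1 was at 0.11 (95% interval -0.35 to 0.57). Class I genes share sequence, and the sum of H2-K1, H2-D1 and the H2-Q genes, 10 genes in all, was at 3725 to 4586 CPM in KO and 3282 to 4238 CPM in WT (0.06, edgeR adjusted p = 0.874).

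Psmb8 and Psmb9, the catalytic subunits of the immunoproteasome, were at 0.08 (95% interval -0.32 to 0.47) and -0.05 (-0.42 to 0.32). Tap1, a chain of the peptide transporter, was at 85.6, 70.8, 68.0 and 93.9 CPM in KO and 65.1, 60.0 and 70.2 CPM in WT. Its groups overlapped by a single library (0.29, 95% interval -0.08 to 0.66, edgeR adjusted p = 0.462). Psmb9 and Tap1 overlap on opposite strands and the libraries do not mark strand, so a small share of their reads cannot be told apart. Of these 6 genes 0 passed in edgeR, DESeq2 or limma voom, and 0 had an unadjusted p below 0.05. At the level of H2-K1, a change beyond 1.31-fold upward or below 0.82-fold lay outside the 95% interval.

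**Figure D3:**
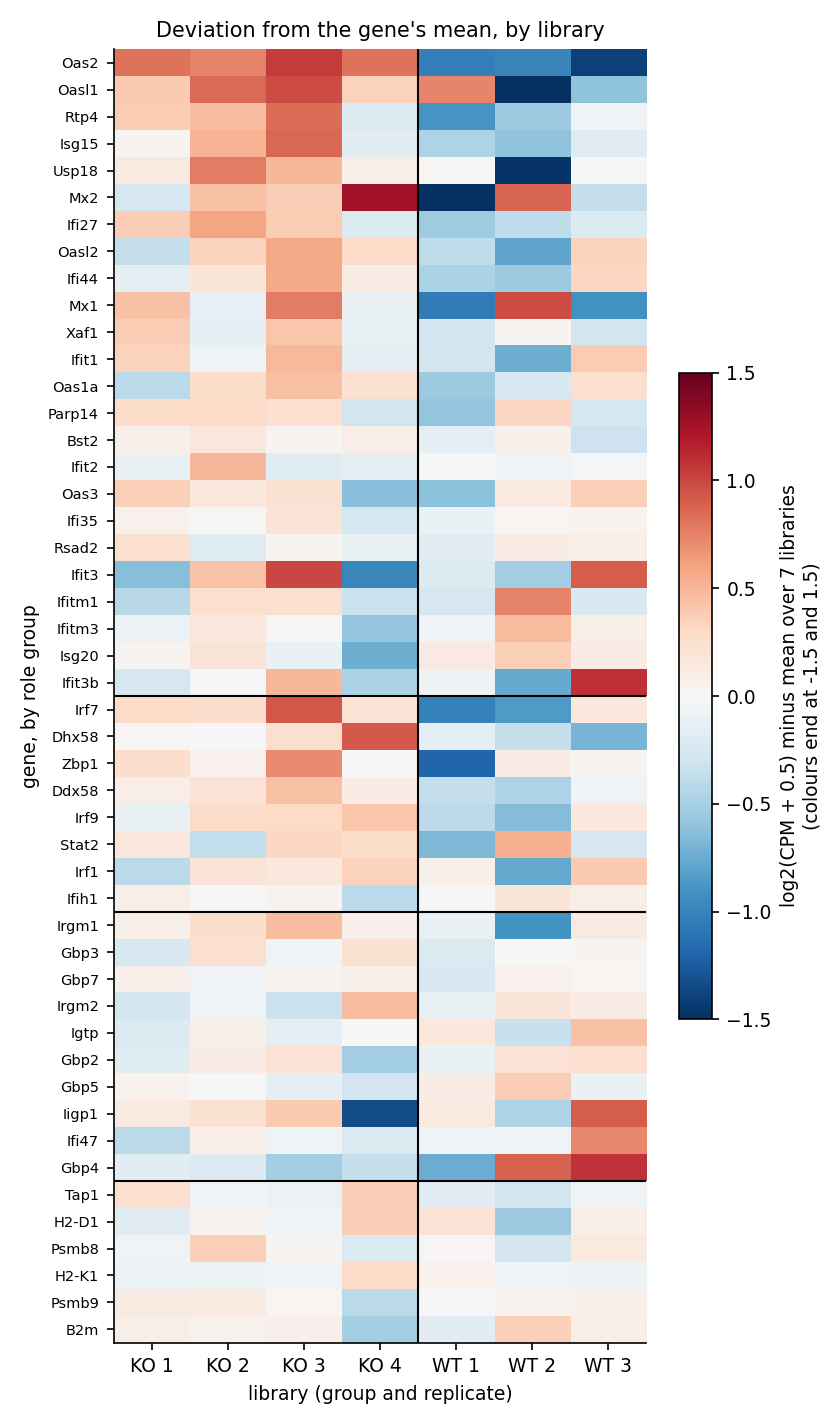
Log2(CPM + 0.5) of each member minus its mean over the 7 libraries, by library (columns) and role group (blocks divided by lines); colours end at -1.5 and 1.5. Oas2 is the row with the widest gap between KO and WT libraries, Ddx58 and Dhx58 also have every KO library above 0 and every WT library below, and the GTPase rows are mixed within each group.

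The libraries of a group did not sit at 1 level. KO replicate 3 was the highest KO library in 20 of the 48 members (41.7%), beside 18.1% of all genes tested, and KO replicate 4 the lowest in 23 (47.9%), beside 35.9%. In the WT group replicate 3 was highest in 25 members (52.1%), beside 31.7% of all genes, and replicate 1 lowest in 25 (52.1%), beside 29.2%. The median deviation of the antiviral effectors from their own means was 0.07, 0.26, 0.43 and -0.15 on the log2 scale in KO and -0.28, -0.15 and -0.02 in WT. KO replicate 4 thus lay among the WT libraries for this role group. For the sensors and signalling factors the medians were 0.10, 0.13, 0.31 and 0.25 in KO and -0.37, -0.41 and 0.06 in WT, with all KO libraries above all WT libraries. For the GTPases they were -0.17, 0.09, -0.05 and -0.11 in KO and -0.10, 0.03 and 0.19 in WT, fully mixed. Over all genes tested no library's median was further than 0.02 from 0.

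**Figure D4:**
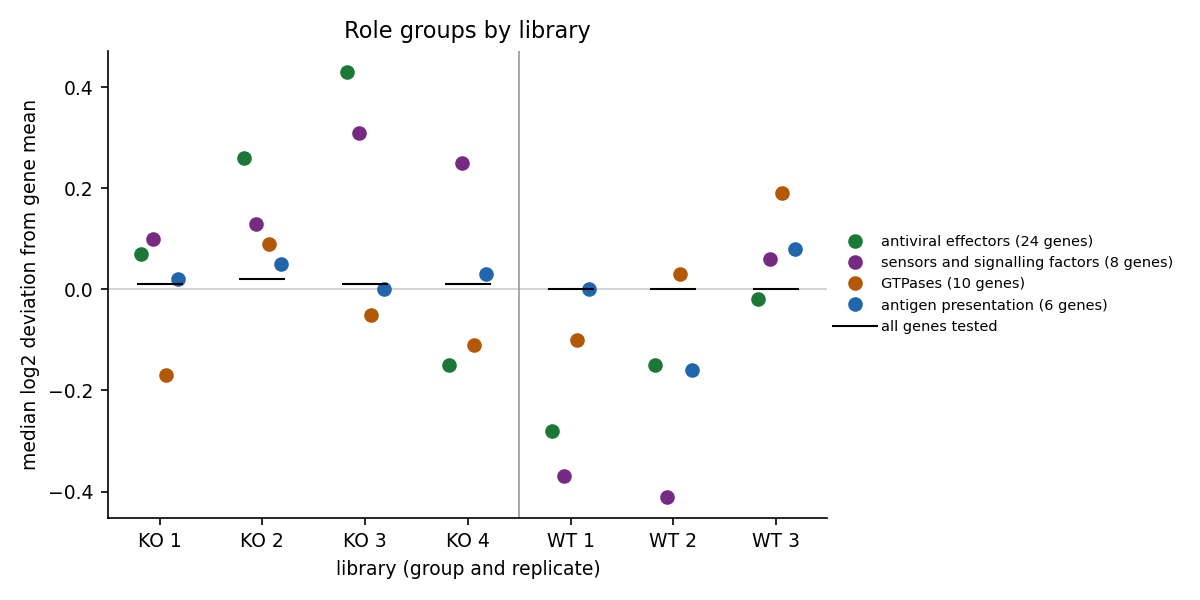
Median over each role group of the log2 deviation from the gene's mean, for each library; black bars give all genes tested. The sensors and signalling factors lie between 0.10 and 0.31 in KO and between -0.41 and 0.06 in WT, while the antiviral effectors of KO replicate 4 lie at -0.15.

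Among the rest of the pathway, taken from lists by role, edgeR called no gene in either direction. The counts below stand beside shares over all genes of 7.42% higher and 7.21% lower on the unadjusted p, 2.27% and 3.39% by DESeq2, and 1.83% and 2.99% by limma voom. Of 21 interferon genes, 14 had 0 reads in every library, Ifnb1 and Ifng among them, and the most in any library was 26 reads. A count of 0 allows up to 3 reads, or 0.0859 to 0.128 CPM in these libraries, for counting error only. Of the ligands only Ifnz passed the filter (0.60, 95% interval -1.05 to 2.25), with 0 called by DESeq2 or limma voom.

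Of 11 receptor and JAK-STAT genes 10 were tested, with 0 called by edgeR, 1 lower (10%) on the unadjusted p, 1 lower by DESeq2 and 0 called by limma voom (median 0.28, and 0.26 without both libraries lacking male-pattern expression). Jak2, the kinase of the type II receptor and of the thrombopoietin receptor, was at 56.9, 46.4, 64.5 and 49.4 CPM in KO and 74.2, 108.4 and 97.4 CPM in WT. Every KO library lay below every WT library (-0.78, SE 0.183, edgeR adjusted p = 0.0581). It passed with DESeq2 (-0.80, adjusted p = 0.0029), and with no filter or the stricter filter on low counts, the length offset and sex as a covariate. Ifnar2, a chain of the type I receptor, was at 90.4, 99.4, 101.3 and 97.4 CPM in KO and 72.9, 70.9 and 89.6 CPM in WT, also without overlap (0.32, 95% interval -0.01 to 0.65, edgeR adjusted p = 0.357).

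Of the 19 tested genes of induction and sensing, edgeR, DESeq2 and limma voom called 0, and on the unadjusted p 3 were higher (15.8%) and 0 lower (median 0.12, and 0.14 without both libraries). The DNA sensor Aim2 (0.54) and the adaptor Tank (0.40) had the smallest p of these. Of 20 negative regulators edgeR called 0, while the unadjusted p was below 0.05 for 2 higher and 2 lower genes (10% each), 1 gene was higher and 1 lower by DESeq2, and 1 was lower by limma voom (median 0.04, and 0.15 without both libraries). Socs3, which restrains cytokine receptors of the gp130 type more than those of interferon, was at 2.50, 3.47, 3.69 and 9.19 CPM in KO and 0.85, 1.08 and 2.37 CPM in WT. KO replicate 4 stood far above the others and the groups did not overlap (1.72, edgeR adjusted p = 0.184). Socs3 passed with DESeq2 (1.70, adjusted p = 0.0421) and with sex as a covariate (1.81, edgeR adjusted p = 0.0253). Nlrx1, a mitochondrial regulator of antiviral signalling, was at 1.91 to 3.29 CPM in KO and 4.83 to 8.25 CPM in WT, without overlap (-1.37, edgeR adjusted p = 0.0757, and adjusted p = 0.00165 with DESeq2).

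A further list of 54 stimulated genes outside the members had 47 tested, of which 35 (74.5%) were above 0 and 12 below, beside 52.7% above 0 over all genes (median 0.24, beside 0.03 over all genes). EdgeR called 0 of them, while 9 (19.1%) were higher and 0 lower on the unadjusted p, and 1 was higher by DESeq2 and 2 by limma voom. Without both libraries lacking male-pattern expression the median was 0.35 and edgeR called 2 higher, Ddx60 and Eif2ak2. Ifi27l2a, a small paralogue of Ifi27, was at 9.72, 10.1, 13.8 and 6.997 CPM in KO and 0.95, 5.01 and 2.63 CPM in WT, without overlap (1.83, SE 0.502, edgeR adjusted p = 0.105, and adjusted p = 0.00471 with DESeq2). Slfn9, a Schlafen family gene, was at 0.46 (edgeR adjusted p = 0.231). Of 11 further GTPases tested, edgeR called 0, with 3 lower (27.3%) and 0 higher on the unadjusted p. Gbp6 and Gbp8 were lower by DESeq2 and 0 genes were called by limma voom. Their median was -0.16, and 0.29 without both libraries lacking male-pattern expression.

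Of 20 further antigen presentation genes, edgeR, DESeq2 and limma voom called 0, with 1 lower (5%) and 0 higher at an unadjusted p below 0.05 (median -0.02, and 0.03 without both libraries). H2-T24 was at 0.73 (edgeR adjusted p = 0.377). Cd74, the invariant chain of MHC class II, was at 130.4, 123.0, 125.4 and 23.4 CPM in KO and 179.1, 241.9 and 246.0 CPM in WT. KO replicate 4 was far below all others, and the groups did not overlap (-1.14, edgeR adjusted p = 0.272). It passed without KO replicate 4, at -0.81 (edgeR adjusted p = 0.0278).

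Markers of other cell types were summed to see which were present in the sorted samples. The 12 macrophage and monocyte markers summed to 10.9 to 20.95 CPM in KO and 8.06 to 17.0 CPM in WT, with Adgre1, Mrc1, C1qa and C1qb among those below 1 CPM in every library. The 8 plasmacytoid dendritic cell markers, which include the member Bst2, summed to 127.3 to 155.0 CPM in KO and 125.7 to 147.4 CPM in WT. Tcf4, at 72.2 to 102.5 CPM in KO and 86.1 to 102.6 CPM in WT, and Bst2 made up most of it. Siglech was at 0.195 to 1.06 CPM in KO and 0.34 to 1.27 CPM in WT, and Ly6d, Cox6a2 and Klk1 were below 1 CPM in every library. The 9 T and NK cell markers summed to 179.8 to 346.8 CPM in KO and 129.0 to 201.3 CPM in WT. Most of that sum was Nkg7, which encodes a granule protein, at 165.9 to 334.8 CPM in KO and 119.4 to 194.0 CPM in WT, while Cd3e, Cd3g, Trbc2, Gzma and Ncr1 stayed below 1 CPM in every library. The 8 neutrophil markers summed to 7.89 to 11.3 CPM in KO and 13.5 to 22.3 CPM in WT, and their members differed in direction. S100a9 fell (log2 fold change -2.22, edgeR adjusted p = 0.0404), and S100a8, Camp and Ngp had every KO library below every WT library without passing. Cxcr2, the largest part of the KO sum, was at 6.03 to 7.69 CPM in KO and 2.91 to 4.05 CPM in WT (1.06, edgeR adjusted p = 0.111). Of the erythroid markers 0 passed, but the alpha-globin gene Hba-a1 was at 0 to 10.7 CPM in KO and 46.4 to 127.9 CPM in WT (edgeR adjusted p = 0.0622), and Hba-a2 likewise did not overlap, while the beta-globin gene Hbb-bt was at 25.95 to 188.5 CPM in KO and 24.4 to 69.4 CPM in WT. Of the 4 B cell markers tested 0 passed and 1 (25%) was higher on the unadjusted p, beside 7.42% of all genes. Of the 6 endothelial and stromal markers tested 0 passed and 1 (16.7%) was lower on the unadjusted p, beside 7.21%. The part of the Nkg7, neutrophil, alpha-globin and megakaryocyte and platelet marker differences in the values above was not tested. In bulk samples, fewer cells of a type and less RNA per cell cannot be told apart.

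Promoter windows of 300 bases, from 250 before the start site, were in the RefSeq table (GRCm38.p6) for 37 of the 48 members. The ISRE core, searched on both strands, stood in the window of 20 of these 37 genes (54.1%), beside 3.99% of all 27025 genes in the table and 3.44% of the 32851 windows. The share was 7 of 8 GTPases (87.5%), 9 of 17 antiviral effectors (52.9%), 3 of 6 sensors and signalling factors (50%) and 1 of 6 antigen presentation genes (16.7%). The GAS letters, searched as TTC, any 3 bases and GAA, which read the same on both strands, stood in 12 of the 37, beside 9.55% of all genes. Both motifs were present in 7 genes, of which 4 were GTPases, and neither in 12. A match is a description of letters and not of binding.

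**Figure D5:**
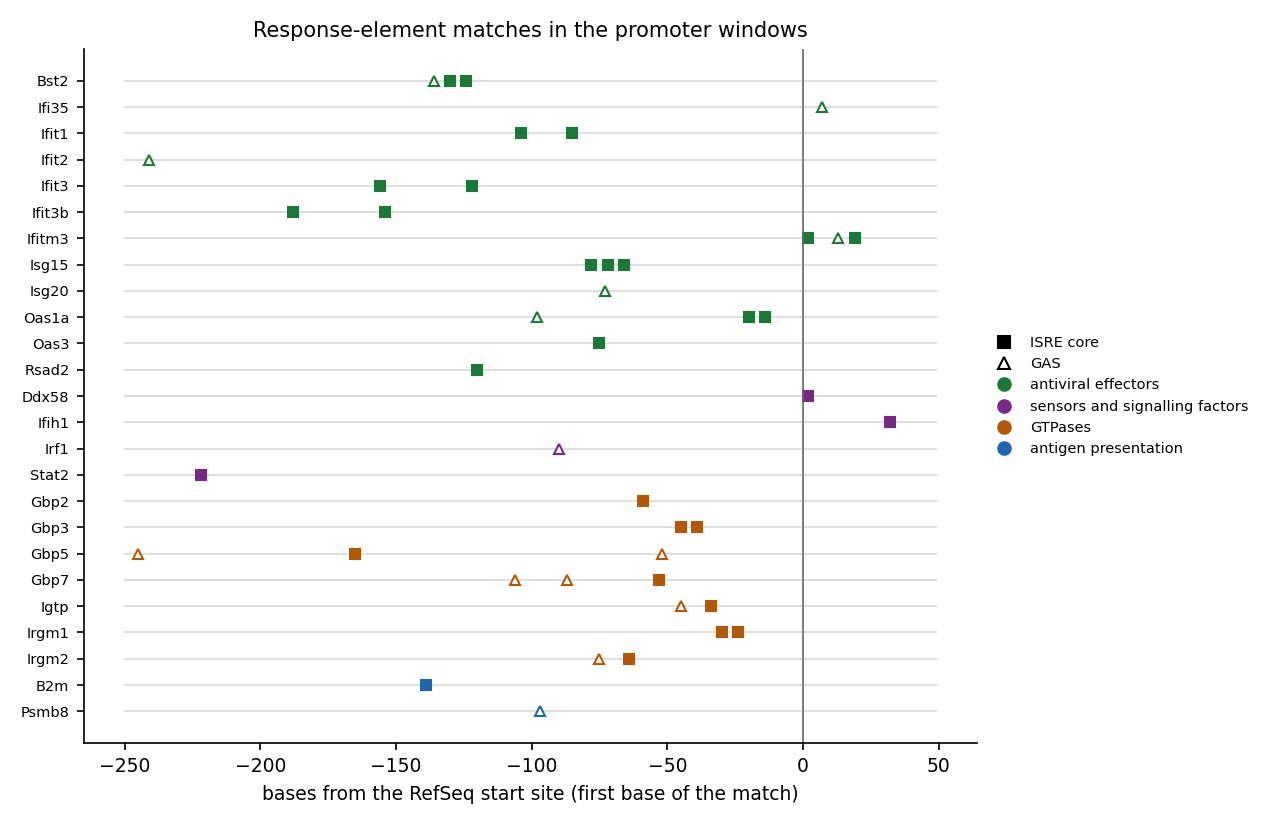
Positions of ISRE core (filled squares) and GAS (open triangles) matches in the promoter windows of the members that hold any, as bases from the RefSeq start site. The 3 matches of Isg15 start at -78, -72 and -66, and the matches of Irgm1 at -30 and -24.

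Members with the ISRE core had values on both sides of 0. Of the 6 members with groups that did not overlap, Isg15 and Ddx58 held the ISRE core, Irf7 had no match, and Oas2, Usp18 and Dhx58 were not in the table, nor were Ifi27 and Rtp4. The core also stood in Gbp2 and B2m, whose values were -0.20 and -0.16. The stretches of Gbp2 (chr3:142620564-142620653, plus strand) and B2m (chr2:122147508-122147597, plus strand) are shown for comparison with Isg15 and Oas3, with the match in capitals, and Gbp2 carries it on the opposite strand.
Gbp2: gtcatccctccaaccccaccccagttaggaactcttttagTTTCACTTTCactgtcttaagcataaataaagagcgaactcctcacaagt
B2m: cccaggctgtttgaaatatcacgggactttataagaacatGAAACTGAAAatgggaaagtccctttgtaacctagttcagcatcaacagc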

How the data were processed

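The deposited files give, per transcript and library, the estimated counts and TPM that the authors made with cutadapt and Salmon 0.11.2 on mm10, per the submitters' processing notes. For the indexed transcript set, nothing is given in the sources used here. The effective lengths are the other deposited values used, for the length offset. Transcripts were joined without version to GENCODE M21 (111787 of 112092 matched; the rest held 0.0836% to 0.123% of reads), and estimated counts were summed per gene and rounded.

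Differences between the 4 KO and 3 WT libraries were tested in edgeR 4.0.16 by quasi-likelihood (R 4.3.3; TMM, filterByExpr, Benjamini-Hochberg over all 14695 genes tested, adjusted p below 0.05). SE is the absolute log2 fold change over the square root of F, and the 95% interval uses the moderated degrees of freedom. CPM scale the counts by the TMM-adjusted library size, and levels of different genes are compared only as deposited TPM summed per gene. On simulated counts for this comparison (14388 genes tested) the test recovered 42% of genes changed 2-fold and 90% of those changed 4-fold. There were 9 false calls among 14189 unchanged genes. The changed genes were drawn only from those above a floor on mean CPM, so these shares do not cover the lowest genes. The simulated libraries also held no shifts shared between genes. DESeq2 1.42.0 and limma 3.58.1 (voom with quality weights) were alternatives, with other scalings and filters, the length offset, the replicate block, sex as a covariate and each library left out.

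Named are members past the threshold, per role group the 3 of smallest p and the most abundant, and all with groups that do not overlap. The 2 genes of smallest p stand for each pathway list, and an item named by the rule is not reported here. Other members, list genes and marker genes named, among them the rest of the 48, Gbp9, Ly6a and Nkg7, are outside that rule and were named after their values were seen. The members and lists were chosen with earlier results of these data known.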

Additional observations from a re-analysis of the deposited data

Results flagged for a closer look

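Single KO libraries stood apart in 8 of 63 genes (the 48 members, B4galt1 and the pathway genes followed by name). About 1 gene in 20 would be picked by chance alone if values were independent, and neither the genes nor their shared libraries are. KO replicate 4 accounted for 4 of them, with Parp14 at 21.37 CPM (the other KO libraries at 31.04 to 31.94), B2m at 4226 CPM (6282 to 6420), Cd74 at 23.42 CPM (123 to 130.4) and, on the high side, H2-K1 at 1791 CPM (1387 to 1418). KO replicate 2 was the high library for Ifit2, at 49.05 CPM (30.46 to 32.24), and for Gbp6, at 13.75 CPM (5.887 to 7.064). KO replicate 3 was high for Irf7, at 32.25 CPM (19.4 to 20.33). KO replicate 1 was high for B4galt1, at 19.32 CPM (14.56 to 14.93). Groups of 3, as in WT, are too small for this check.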

How the results depend on the processing

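Oas2 was called under all 18 alternatives. Against 88 genes called higher and 244 lower, DESeq2 called 379 and 567, limma voom 269 and 439, sex as a covariate 218 and 396, and the length offset 215 higher. Leaving out 1 library gave 30 to 130 higher, with the lower end without KO replicate 2, KO replicate 3 or any WT replicate (30 to 45), and 157 to 279 lower, with 157 without KO replicate 2. Members called higher were 3 with DESeq2, 3 with limma voom, 2 with the replicate block, 4 without both libraries lacking male-pattern expression, and 1 to 3 with 1 library left out, and members called lower were 0 to 1. The GTPase median was -0.0021 without both libraries and -0.25 to -0.04 with 1 left out. Replicate numbers share only a number between groups (correlations of same-numbered deviations -0.0812, -0.139 and -0.0618), and the replicate block, with 59 genes higher and 194 lower, added Rtp4 to the calls. Of 1132 values of single genes under alternatives, 1047 kept direction and side, 29 were newly called, 0 lost a call and 56 changed sign, 7 of them with a value of at least 0.3 in size (Ifit3b, Iigp1 and Mx1). Ifi35 turned to -0.01 with upper quartile scaling and with the length offset, to -0.00044 with DESeq2 and to -0.0023 with sex as a covariate, where Ifit3 was at 0.01. With limma voom the signs turned for Ifit3 (0.26), Ifitm1 (0.22), Rsad2 (0.03), Irf1 (-0.01), Psmb9 (0.04), H2-K1 (-0.04), H2-D1 (-0.09) and B2m (0.04). With the length offset they turned for Ifih1 (0.05) and H2-K1 (-0.0017). With the replicate block they turned for Ifit3 (0.23), Ifit3b (0.19), Rsad2 (0.03), Iigp1 (0.06), Psmb9 (0.07) and H2-K1 (-0.04). Without both libraries they turned for Ifit3 (0.90), Ifit3b (1.16), Rsad2 (0.08), Iigp1 (0.39), Psmb9 (0.10) and H2-K1 (-0.07). With 1 library left out, the value ran from -0.47 to 0.04 for B4galt1, -0.12 to 0.14 for Ifit2, -0.57 to 0.60 for Ifit3, -1.17 to 0.88 for Ifit3b, -0.06 to 0.11 for Ifi35, -0.38 to 0.19 for Ifitm1, -0.04 to 1.66 for Mx1, -0.21 to 0.27 for Oas3, -0.12 to 0.05 for Rsad2, -0.08 to 0.56 for Stat2, -0.17 to 0.37 for Irf1, -0.27 to 0.01 for Irgm2, -0.62 to 0.10 for Iigp1, -0.02 to 0.11 for Gbp7, -0.06 to 0.16 for Psmb8, -0.11 to 0.07 for Psmb9, -0.04 to 0.09 for H2-K1 and -0.12 to 0.23 for H2-D1. None of these genes was called in any setting, and the cause was not tested. The ISRE core stood in 17 of the 37 members in a shorter window of 150 bases before the start, beside 2.39% of all genes. Depth limits the low members, Ifit3b (1 to 34 reads) most.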
